A study of Mus musculus with 18 samples.

Results

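NRF2, encoded by Nfe2l2, and 8 genes long known as its targets were followed through 18 RNA sequencing libraries of mouse macrophages. The members were taken by symbol (Nfe2l2, Hmox1, Nqo1, Gclc, Gclm, Slc7a11, Txnrd1, Srxn1 and Prdx1), by a rule that holds no measured value, although earlier results of these data were known when it was written. The deposited table lists 16474 genes, and all 9 members are among them. All 9 also passed the filter on low values (10 or more in 3 or more libraries).

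NRF2 is a transcription factor that the cell makes continuously and destroys continuously. KEAP1 hands it to a CUL3 ubiquitin ligase, and electrophiles or oxidants that modify KEAP1 let NRF2 escape. It then enters the nucleus, pairs with a small MAF protein and binds antioxidant response elements (AREs), sites that the repressor BACH1 otherwise occupies at genes such as Hmox1. Because the main control is on the protein, the mRNA of Nfe2l2 need not follow that of its targets. In macrophages the pathway is known for limiting oxidative damage during inflammatory activation.

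The cells came from 8-week-old C57BL/6 mice, either wild type (WT) or p110g-/-, a genotype that lacks p110gamma, the catalytic subunit of PI3K gamma encoded by Pik3cg. Bone marrow was turned into macrophages over 6 days with M-CSF (macrophage colony stimulating factor) at 50 ng/ml. All groups then received M-CSF at 20 ng/ml, either alone for 24 h, with LPS (lipopolysaccharide, 100 ng/ml) plus interferon gamma (IFNg) over the same 24 h, or with interleukin 4 (IL-4, 20 ng/ml) over 48 h. Stimulus and time therefore cannot be told apart for IL-4. The 6 groups of genotype and stimulus hold 3 libraries each, numbered 1 to 3. The labels are silent on whether same-group libraries stem from different animals or dishes, so p-values measure the spread between libraries, which may be technical. In such bulk RNA, fewer cells of a type and less RNA per cell cannot be told apart.

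Libraries held 40.1 to 69.6 M reads (1 M is 1e6). The members lay between 74 reads (Nqo1 in p110g-/- M-CSF, number 2) and 686099 reads (Prdx1 in WT IFNg/LPS, number 2), so counting error was largest for Nqo1. Of the 8 macrophage markers listed, Csf1r held 46925.7 to 122648.7 and Lyz2 208234.5 to 650391.5. The lowest values of Emr1, Itgam and Cd68 were 43630.7, 27514.4 and 12469.9. Mertk held 2658.6 to 13464.9, Cd14 1168.7 to 101670.1 and Fcgr1 643.5 to 70931.4. Their sum was 883966.3 to 1044324.4 in WT M-CSF and 501406.0 to 553576.2 in WT IL-4. Pik3cg, the targeted gene, differed between genotypes by -1.41 (log2) in M-CSF (adjusted p = 0.0027) and by -1.63 in IL-4 (adjusted p = 6.3e-04), lower in p110g-/- cells. Under IFNg/LPS it did not pass the test (-0.34, adjusted p = 0.37). Number 1 of the libraries labelled p110g-/- IFNg/LPS, at 3691.4, exceeded the WT ones at 3559.5, 2309.0 and 2604.2. Directions drawn from p110g-/- IFNg/LPS rest in part on that library. Without it all 9 members were still called with IFNg/LPS against M-CSF in p110g-/- cells, and the genotype differences that pass or lie near the threshold are given both ways. The libraries numbered 1 also stood apart from numbers 2 and 3 for several members, as described further on, and fits on numbers 2 and 3 alone, which have fewer samples, gave other calls in several comparisons.

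Promoter sequence is shown first because the members share a regulator and most of them rose together with IFNg/LPS. RefSeq (assembly GRCm38.p6) gave an entry for 7 of the 9 members, in 9 windows, since Txnrd1 has several starts. Hmox1 and Gclc have no entry. Each window is the 250 bases before an annotated start, written 5′ to 3′ on the strand of the gene. On both strands, 3 patterns were searched: the ARE core TGACNNNGC, the NF-E2 type element TGANTCAGC and the AP-1 element TGACTCA, the site of FOS and JUN dimers. The patterns overlap by construction, so 1 stretch can match several. Capitals mark matched bases on either strand, and positions are counted back from the start. The windows shown lie at chr2:75704664-75704913 for Nfe2l2 and chr3:50443614-50443863 for Slc7a11, both on the minus strand, and at chr3:122245307-122245556 for Gclm, chr2:152105274-152105523 for Srxn1 and chr4:116685349-116685598 for Prdx1, all on the plus strand.
Nfe2l2: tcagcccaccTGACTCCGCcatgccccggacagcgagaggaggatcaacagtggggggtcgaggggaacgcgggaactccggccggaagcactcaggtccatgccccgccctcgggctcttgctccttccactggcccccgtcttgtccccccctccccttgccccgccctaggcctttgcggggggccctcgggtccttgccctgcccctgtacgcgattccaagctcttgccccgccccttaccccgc
Gclm: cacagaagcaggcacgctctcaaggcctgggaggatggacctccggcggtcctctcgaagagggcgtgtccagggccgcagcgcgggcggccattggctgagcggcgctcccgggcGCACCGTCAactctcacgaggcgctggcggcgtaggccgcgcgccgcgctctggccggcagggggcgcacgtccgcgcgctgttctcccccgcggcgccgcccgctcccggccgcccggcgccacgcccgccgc
Srxn1: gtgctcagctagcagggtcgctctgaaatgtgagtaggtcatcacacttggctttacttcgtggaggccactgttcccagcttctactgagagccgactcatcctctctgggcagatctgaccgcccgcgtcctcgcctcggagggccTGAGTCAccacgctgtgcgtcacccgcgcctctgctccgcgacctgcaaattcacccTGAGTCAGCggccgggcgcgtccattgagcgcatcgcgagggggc
Prdx1: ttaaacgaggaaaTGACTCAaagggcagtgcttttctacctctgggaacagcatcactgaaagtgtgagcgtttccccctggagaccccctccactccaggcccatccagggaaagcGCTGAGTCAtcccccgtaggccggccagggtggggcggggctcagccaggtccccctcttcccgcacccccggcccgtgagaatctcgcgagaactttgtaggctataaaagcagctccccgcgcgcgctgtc
Slc7a11: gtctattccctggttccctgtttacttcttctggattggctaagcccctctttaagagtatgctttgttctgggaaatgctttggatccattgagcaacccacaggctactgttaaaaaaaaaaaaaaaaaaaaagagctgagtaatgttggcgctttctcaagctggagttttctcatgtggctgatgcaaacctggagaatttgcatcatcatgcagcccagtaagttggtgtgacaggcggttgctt

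The ARE core matched in 4 of the 7 members with an entry (Nfe2l2, Gclm, Txnrd1 and Prdx1), against 10.2% of all 32851 RefSeq windows of the same length. The 4 are counted by gene and the share by window. The Txnrd1 match, at -92 to -84, lies before a single start of its several. The match in Nfe2l2 itself, TGACTCCGC, lies at -240 to -232, and the one in Gclm, GCACCGTCA on the strand shown, at -134 to -126. The NF-E2 type element matched in Srxn1, at -45 to -37, and in Prdx1, at -133 to -125, against 1.02% of all windows. The AP-1 element matched at 2 places each in the same 2 members, against 4.46% of all windows. One of these lies inside the NF-E2 type match in each gene, and in Prdx1 the same bases also match the ARE core. Slc7a11 is shown because it differed by genotype, and none of these patterns occurs in its window. None occurs in the Nqo1 window either. A match describes letters only, and the windows leave out more distant enhancers.

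**Figure D1:**
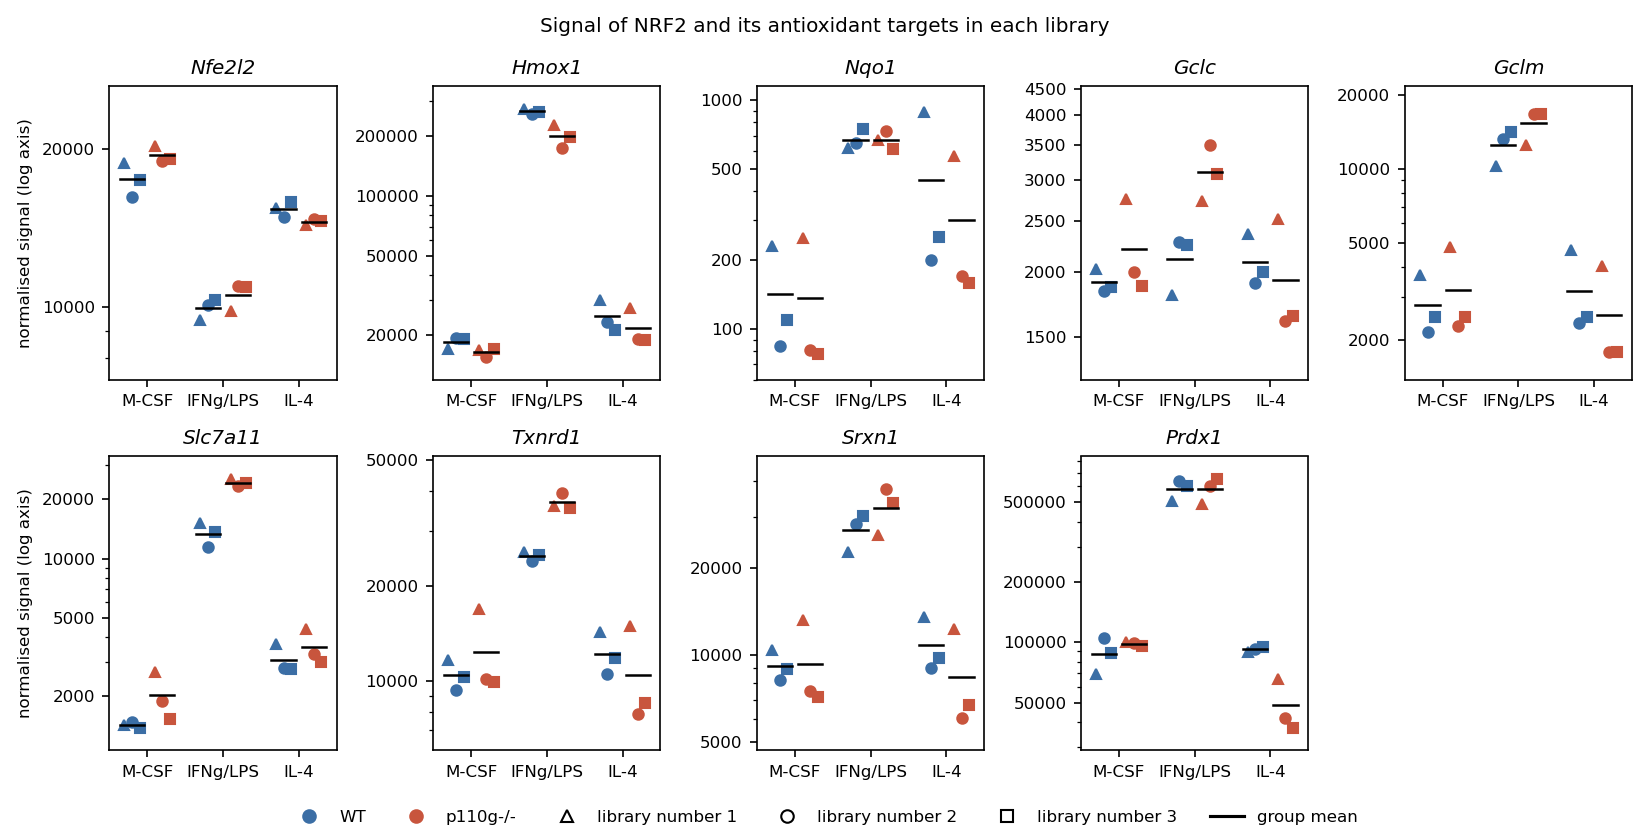
Normalised signal (log axis) of the 9 members in each of the 18 libraries, by stimulus and genotype (colour), with the marker shape giving the library number and the bar the group mean. Hmox1, Slc7a11, Gclm and Prdx1 sit higher in every IFNg/LPS library than in any other library, and Nfe2l2 sits lower there.

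IFNg/LPS raised most of the targets and lowered the mRNA of the regulator. In WT cells 7 members rose, 1 fell (Nfe2l2) and Gclc did not pass the test. Of all 15627 genes tested, 73.8% were called in this comparison (limma on log2(signal + 1), Benjamini-Hochberg adjusted p under 0.05), with 36.3% higher and 37.5% lower, so being called was common here. The members' median log2 fold change was 2.20, against -0.01 over all genes. In p110g-/- cells 8 members rose and Nfe2l2 fell, with a median of 2.34 against -0.01, where 73.0% of genes were called, 36.2% higher and 36.8% lower. All fold changes are on the log2(signal + 1) scale.

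Nfe2l2 held 18827.0, 16219.1 and 17470.2 in the WT M-CSF libraries numbered 1, 2 and 3. In WT IFNg/LPS it held 9463.3, 10099.8 and 10320.5. The groups did not overlap, and every IFNg/LPS library was lower. Nfe2l2 fell to 0.570 of its M-CSF level, or by 0.81 on the log2 scale (SE 0.07, adjusted p = 2.0e-08). Nfe2l2 in p110g-/- cells went from 20254.2, 18955.4 and 19119.7 in M-CSF to 9822.9, 10965.7 and 10928.8 in IFNg/LPS, again without overlap (-0.88, SE 0.07, adjusted p = 7.8e-09). With IL-4 it fell less far. The IL-4 libraries held 15473.1, 14865.5 and 15854.6 in WT and 14337.2, 14719.2 and 14601.3 in p110g-/- cells. They lay below the M-CSF libraries of their own genotype and above all the IFNg/LPS libraries. The change with IL-4 was -0.18 in WT (SE 0.07, adjusted p = 0.035) and -0.42 in p110g-/- cells (SE 0.07, adjusted p = 1.2e-04). The WT call was lost in 6 of 18 alternatives, 4 of which left out a single WT library, with adjusted p up to 0.16, and 1 of which kept numbers 2 and 3 only (-0.13, adjusted p = 0.077).

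Hmox1, the inducible haem oxygenase that breaks haem down to biliverdin, iron and carbon monoxide, had the highest log2 fold change with IFNg/LPS of the members in WT. It held 17004.8, 19236.8 and 19106.9 in WT M-CSF and 274643.2, 259368.5 and 263934.1 in WT IFNg/LPS. The groups lay far apart, and the IFNg/LPS libraries were close together. The rise was 14.4-fold (log2 3.85, SE 0.14, adjusted p = 3.4e-12). Hmox1 in p110g-/- cells went from 16762.0, 15412.4 and 16897.3 to 226862.2, 175069.1 and 196792.4, a rise of 12.1-fold (log2 3.60, SE 0.14, adjusted p = 6.7e-12). Every p110g-/- IFNg/LPS library was below every WT one. With IL-4 Hmox1 held 29959.0, 23214.0 and 21221.0 in WT and 27235.2, 19043.9 and 18845.7 in p110g-/- cells. These were above the M-CSF libraries of their genotype in each case, with the library numbered 1 highest. The log2 fold changes were 0.41 (SE 0.14, adjusted p = 0.030) and 0.39 (SE 0.14, adjusted p = 0.040). The WT call was lost in 4 of 18 alternatives and the p110g-/- call in 8, among them other scalings and single M-CSF libraries left out. Without the WT IL-4 library numbered 1 the value was 0.27 (adjusted p = 0.14), and without the p110g-/- one it was 0.21 (adjusted p = 0.21).

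Nqo1, a quinone reductase and one of the classical NRF2 readouts, had the fewest reads of the members. It rose 5.15-fold with IFNg/LPS in WT (log2 2.36, SE 0.59, adjusted p = 0.0018) and 5.70-fold in p110g-/- cells (2.51, SE 0.59, adjusted p = 0.0012). Its SE was the largest of the members. The spread lay in 1 library of each M-CSF and IL-4 group, and for that reason, seen in the data, its values are given in full. In M-CSF, Nqo1 held 231.2, 84.7 and 109.3 in the WT libraries and 249.4, 80.9 and 77.9 in the p110g-/- ones. With IL-4 it held 887.8, 200.7 and 253.0 in the WT libraries and 568.9, 170.5 and 159.0 in the p110g-/- ones. Number 1 was highest in all 4 of these groups. In IFNg/LPS the libraries held 618.6, 647.1 and 745.4 in WT and 667.6, 731.8 and 612.0 in p110g-/- cells, with no library apart. The IL-4 change of Nqo1 in WT was 1.46 (SE 0.59, adjusted p = 0.055), and in p110g-/- cells 1.09 (SE 0.59, adjusted p = 0.14). The library numbers were treated as pairing these groups, by the correlation rule given below. With the number as a block, the adjusted p was 0.0087 in WT and 0.038 in p110g-/- cells, so both passed there. In WT the change also passed in 5 other alternatives of 18, among them edgeR (adjusted p = 0.043), DESeq2 (0.029) and numbers 2 and 3 alone (1.22, adjusted p = 4.5e-05). In p110g-/- cells it also passed in numbers 2 and 3 alone (1.04, adjusted p = 1.6e-04) and without the M-CSF library numbered 1 (1.64, adjusted p = 0.043).

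Gclc and Gclm encode the catalytic and the modifier subunit of glutamate-cysteine ligase, the limiting step of glutathione synthesis, and Slc7a11 encodes the cystine importer xCT that feeds it. Gclm rose with IFNg/LPS by 2.20 in WT (SE 0.35, adjusted p = 3.4e-05) and by 2.34 in p110g-/- cells (SE 0.35, adjusted p = 1.9e-05). It lay between 2160.6 and 3705.0 in WT M-CSF and between 10262.0 and 14204.0 in WT IFNg/LPS. For the catalytic subunit no such rise passed the test in WT. Gclc held 2026.5, 1839.1 and 1866.2 in WT M-CSF and 1804.1, 2282.0 and 2252.0 in WT IFNg/LPS. These groups overlapped, and the log2 fold change was 0.14 (95% interval -0.23 to 0.51, adjusted p = 0.48). In the libraries numbered 2 and 3 alone it was 0.29 and was called (adjusted p = 0.0018), and with equal totals it was -0.37 (not called). Gclc in p110g-/- cells held 2758.8, 1995.5 and 1875.6 in M-CSF and 2730.8, 3501.5 and 3082.3 in IFNg/LPS. The library numbered 1 of M-CSF overlapped the IFNg/LPS range, and the others lay below it. The log2 fold change was 0.50 (SE 0.17, adjusted p = 0.016), and with every library scaled to the same total it was 0.10 (adjusted p = 0.61). The call was also lost without the p110g-/- M-CSF library numbered 2 (0.44, adjusted p = 0.058) or 3 (0.40, adjusted p = 0.076), or the IFNg/LPS one numbered 2 (0.41, adjusted p = 0.068).

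Slc7a11 held 1424.2, 1484.4 and 1380.2 in WT M-CSF and 15141.3, 11494.7 and 13584.9 in WT IFNg/LPS, a rise of 9.32-fold (log2 3.22, SE 0.18, adjusted p = 2.3e-10). In p110g-/- cells it went from 2655.3, 1888.4 and 1530.7 to 25414.3, 23352.4 and 24307.4, or 12.3-fold (log2 3.62, SE 0.18, adjusted p = 6.0e-11). Every p110g-/- IFNg/LPS library lay above the highest library of any other group, 15141.3. Slc7a11 was also the member that rose most clearly with IL-4. The IL-4 libraries held 3670.9, 2782.8 and 2762.9 in WT and 4402.9, 3280.1 and 2987.1 in p110g-/- cells, all above the M-CSF libraries. The IL-4 log2 fold changes were 1.09 (SE 0.18, adjusted p = 1.7e-04) and 0.83 (SE 0.18, adjusted p = 0.0015), and both calls held in all 18 alternatives.

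Txnrd1, Srxn1 and Prdx1 act on protein thiols and peroxides: thioredoxin reductase 1 recharges thioredoxin, peroxiredoxin 1 destroys peroxides, and sulfiredoxin 1 rescues over-oxidised peroxiredoxins. All 3 rose with IFNg/LPS. Txnrd1 lay between 9372.0 and 11661.2 in WT M-CSF and between 24081.9 and 25728.1 in WT IFNg/LPS (1.26, SE 0.22, adjusted p = 8.2e-05). Srxn1 lay between 8177.7 and 10445.9 in WT M-CSF and between 22707.6 and 30317.3 in WT IFNg/LPS (1.56, SE 0.27, adjusted p = 7.3e-05). The p110g-/- rises were 1.62 for Txnrd1 (adjusted p = 6.3e-06) and 1.85 for Srxn1 (adjusted p = 1.3e-05).

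Prdx1 held 69093.9, 105193.3 and 88146.4 in WT M-CSF and 507793.9, 640606.8 and 599766.0 in WT IFNg/LPS, a rise of 6.73-fold (log2 2.75, SE 0.18, adjusted p = 2.1e-09). In p110g-/- cells it held 100761.6, 99114.3 and 95471.1 in M-CSF and 490741.0, 600263.6 and 650314.5 in IFNg/LPS, a rise of 5.86-fold (2.55, SE 0.18, adjusted p = 5.2e-09). The IFNg/LPS ranges of the genotypes lay almost on top of each other. With IL-4 the genotypes parted. WT IL-4 libraries held 89979.2, 92444.6 and 94343.9, within the range of WT M-CSF, while p110g-/- IL-4 libraries held 65817.4, 41954.1 and 37546.3. The latter lay below every other library, and number 1 was the highest of them. The IL-4 change was 0.10 in WT (95% interval -0.30 to 0.49, adjusted p = 0.70) and -1.07 in p110g-/- cells (SE 0.18, adjusted p = 2.6e-04). Prdx1 has an annotated pseudogene. How shared reads were assigned is not given in the sources used here, so its values are uncertain in that respect.

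**Figure D2:**
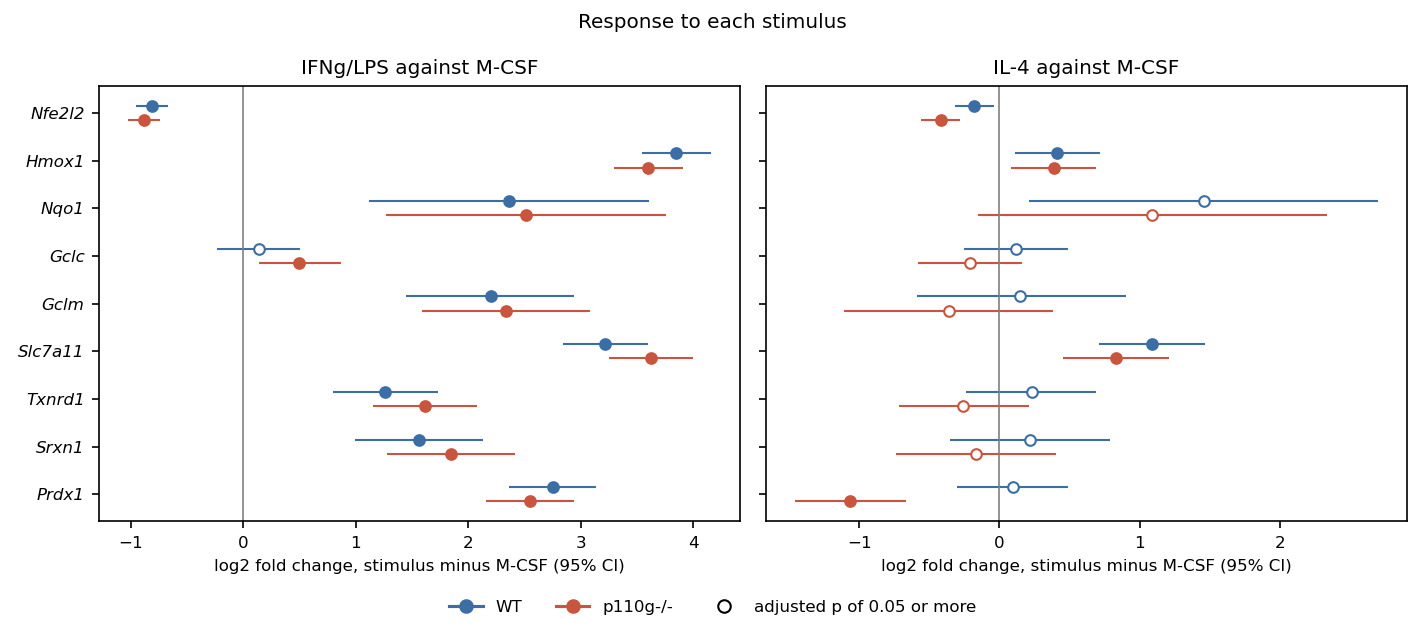
Log2 fold change of each member with IFNg/LPS and with IL-4 against M-CSF, in WT and p110g-/- cells, with 95% intervals from limma. Hmox1 and Slc7a11 rose most with IFNg/LPS, Nfe2l2 fell, and with IL-4 most intervals include 0.

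With IL-4, far fewer members were called. In WT, Hmox1 and Slc7a11 rose and Nfe2l2 fell, 3 of 9 members, where 43.9% of all genes were called (22.9% higher, 21.1% lower). The members' median was 0.22 against 0.00 over all genes. In p110g-/- cells Hmox1 and Slc7a11 rose and Nfe2l2 and Prdx1 fell, 4 of 9, again against 43.9% (22.7% higher, 21.2% lower), and the median was -0.21 against -0.01. The share of members called was thus below the share of all genes in WT and close to it in p110g-/- cells. In the libraries numbered 2 and 3 alone, all 9 members were called in p110g-/- cells, 3 higher (Hmox1, Nqo1 and Slc7a11) and 6 lower. The 43.9% comes from the fit on all libraries. The share of all genes called with numbers 2 and 3 is not given here, so this count has no share to be read against. The responses to IFNg/LPS and IL-4 within a genotype share their M-CSF libraries, so they are given side by side only.

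The order of group levels differed between members. For Nfe2l2 the order from highest to lowest was p110g-/- M-CSF, WT M-CSF, WT IL-4, p110g-/- IL-4, p110g-/- IFNg/LPS and WT IFNg/LPS, and only the last pair overlapped. For Hmox1 it was WT IFNg/LPS, p110g-/- IFNg/LPS, WT IL-4, p110g-/- IL-4, WT M-CSF and p110g-/- M-CSF. Its IL-4 groups overlapped each other, and the p110g-/- IL-4 group overlapped WT M-CSF. For Slc7a11 the order was p110g-/- IFNg/LPS, WT IFNg/LPS, p110g-/- IL-4, WT IL-4, p110g-/- M-CSF and WT M-CSF, and of the neighbours only the IL-4 groups overlapped. For Gclc and Nqo1 every pair of neighbours overlapped. For Txnrd1 and Prdx1 the IFNg/LPS groups were highest as well. For Gclm and Srxn1 both IFNg/LPS groups stood above the rest, and all other neighbours overlapped.

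**Figure D3:**
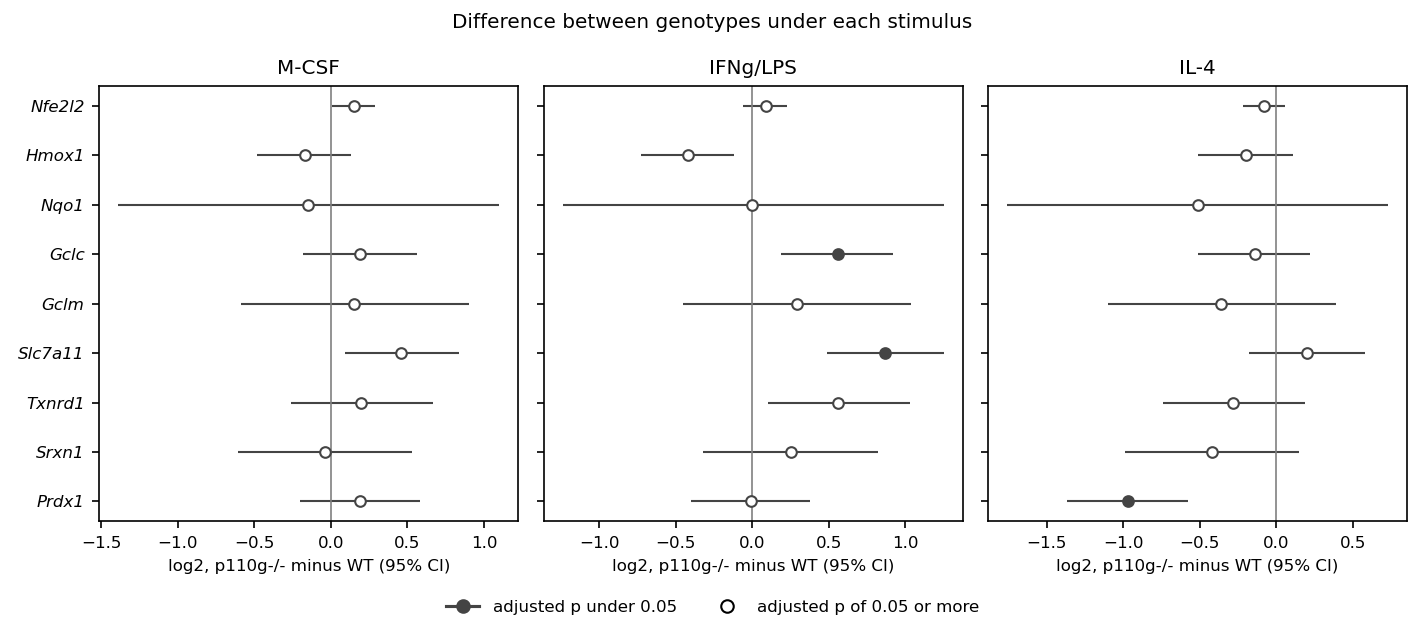
Log2 difference of each member between p110g-/- and WT cells in M-CSF, IFNg/LPS and IL-4, with 95% intervals from limma. Slc7a11 and Gclc were called higher in IFNg/LPS, and Prdx1 was called lower in IL-4.

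Between the genotypes few members differed. In IFNg/LPS, Slc7a11 and Gclc were higher in p110g-/- cells. In IL-4, Prdx1 was lower. In M-CSF none was called.

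In M-CSF 0 of 9 members passed limma's test, where 2.34% of all genes did, and DESeq2 and edgeR also called 0. At an unadjusted p under 0.05 limma had 2 members, Nfe2l2 (0.15, 95% interval 0.01 to 0.29, adjusted p = 0.32) and Slc7a11 (0.46, 95% interval 0.09 to 0.84, adjusted p = 0.25). For both, the p110g-/- libraries listed above lay over the WT ones. The members' median was 0.15 against 0.00 over all genes. The interval for Nqo1 ran from -1.39 to 1.10 and that for Gclm from -0.59 to 0.90, so a change of 1 log2 unit in Nqo1, up or down, lay inside its interval.

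In IFNg/LPS 2 of 9 members were called, both higher in p110g-/- cells, against 14.7% of all genes (6.94% higher, 7.79% lower). The members' median was 0.25 against 0.00. Slc7a11 was 1.83-fold higher (log2 0.87, SE 0.18, adjusted p = 0.0043), with no overlap between the genotypes. The call held in all 18 alternatives, where the log2 difference ran from 0.76 to 0.96. Without the library labelled p110g-/- IFNg/LPS number 1 it was 0.84 (adjusted p = 0.012). Gclc was 1.47-fold higher (log2 0.56, SE 0.17, adjusted p = 0.042), also without overlap. This call was lost in 7 of 18 alternatives. They include leaving out any 1 WT IFNg/LPS library (adjusted p = 0.12, 0.063 and 0.066 for numbers 1, 2 and 3) or the p110g-/- library numbered 2 (0.16) or 3 (0.086). Without the p110g-/- library numbered 1 the value was 0.64 (adjusted p = 0.033).

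Hmox1 and Txnrd1 lay near the threshold in IFNg/LPS, in opposite directions. Hmox1 was at -0.42 (SE 0.14, adjusted p = 0.062), and the p110g-/- libraries held 0.746 of the WT level. Txnrd1 held 24081.9 to 25728.1 in WT and 35253.8 to 39548.9 in p110g-/- cells, a difference of 0.56 (SE 0.22, adjusted p = 0.099). Neither pair of ranges overlapped. By the correlation rule given below, the library numbers were treated as pairing these groups. With the number as a block both passed, Hmox1 at an adjusted p of 0.029 and Txnrd1 at 0.028, which made 4 members called. The block called 2974 of all genes, against 2303 in the main fit. Without the library labelled p110g-/- IFNg/LPS number 1, Hmox1 was at -0.52 (adjusted p = 0.034) and Txnrd1 at 0.58 (adjusted p = 0.13). In the libraries numbered 2 and 3 alone 6 members were called: Slc7a11, Gclc, Txnrd1, Gclm (0.29, adjusted p = 0.012) and Srxn1 (0.27, adjusted p = 0.022) higher, and Hmox1 lower. Of all genes, 4143 were called in that fit. Prdx1 (95% interval -0.40 to 0.38) showed no difference that passed the test in any of the 18 alternatives.

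In IL-4 Prdx1 was the 1 member called, against 3.33% of all genes (1.34% higher, 1.99% lower), and the members' median was -0.28 against 0.00. Prdx1 in p110g-/- cells was 0.509 of the WT level (log2 -0.97, SE 0.18, adjusted p = 0.0068). The ranges did not overlap. Beside this, the mast cell and basophil markers (3 of 5 listed) summed to 301.8, 191.6 and 185.1 in WT IL-4. In p110g-/- IL-4 they summed to 44.5, 67.8 and 58.7, also without overlap. Of them, Mcpt8 was at 0 in at least 1 of the 18 libraries. The sums of these markers were also lower in p110g-/- cells, without overlap, in M-CSF and IFNg/LPS. There the Prdx1 difference was 0.19 (adjusted p = 0.77) and -0.01 (adjusted p = 0.98). The part of these markers in the result was not tested. Without the p110g-/- IL-4 library numbered 3 the Prdx1 difference in IL-4 was -0.81 (adjusted p = 0.052), and with only the IL-4 libraries in the fit the adjusted p was 0.058. In the libraries numbered 2 and 3 alone it was -1.23 (adjusted p = 5.2e-06), and 2289 of all genes were called, against 520 in the main fit. There, 4 further members were lower: Gclc (-0.26, adjusted p = 0.022), Gclm (-0.43, adjusted p = 0.0020), Txnrd1 (-0.45, adjusted p = 0.0025) and Srxn1 (-0.56, adjusted p = 5.2e-04). With all libraries these 4 had adjusted p of 0.79, 0.73, 0.64 and 0.53.

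Whether the genotype difference itself depended on the stimulus was tested as an interaction with M-CSF. No member passed for IFNg/LPS, where 2.44% of all genes did, and none had an unadjusted p under 0.05. DESeq2 and edgeR called none either. The interaction was 0.40 for Slc7a11 (SE 0.25, adjusted p = 0.44) and 0.37 for Gclc (SE 0.24, adjusted p = 0.48), so a genotype difference particular to IFNg/LPS is not shown for them. In the libraries numbered 2 and 3 alone 4 members passed: Slc7a11 (0.68, adjusted p = 0.011), Gclc (0.47, adjusted p = 0.0089), Txnrd1 (0.57, adjusted p = 0.0076) and Srxn1 (0.49, adjusted p = 0.014). Of all genes, 1703 passed in that fit, against 381 in the main fit.

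For IL-4 limma called 0 members and 0 of 15627 genes, so the share called was 0%, with 1156 genes and 2 members at an unadjusted p under 0.05. Those members were Prdx1, at -1.16 (SE 0.26, adjusted p = 0.22), and Nfe2l2, at -0.23 (SE 0.09, adjusted p = 0.57). edgeR called no gene, and DESeq2 called 76 genes, with Prdx1 among them at -1.10 (adjusted p = 0.015). The Prdx1 interaction also passed without the p110g-/- IL-4 library numbered 1 (-1.41, adjusted p = 0.017) and with numbers 2 and 3 alone (-1.25, adjusted p = 6.1e-04). With numbers 2 and 3 alone Gclm (-0.47, adjusted p = 0.035) and Txnrd1 (-0.49, adjusted p = 0.041) passed as well, and 386 of all genes did. The adjusted p of the Prdx1 interaction ran from 6.1e-04 to 0.66 over the 24 alternatives, and it was negative in each.

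**Figure D4:**
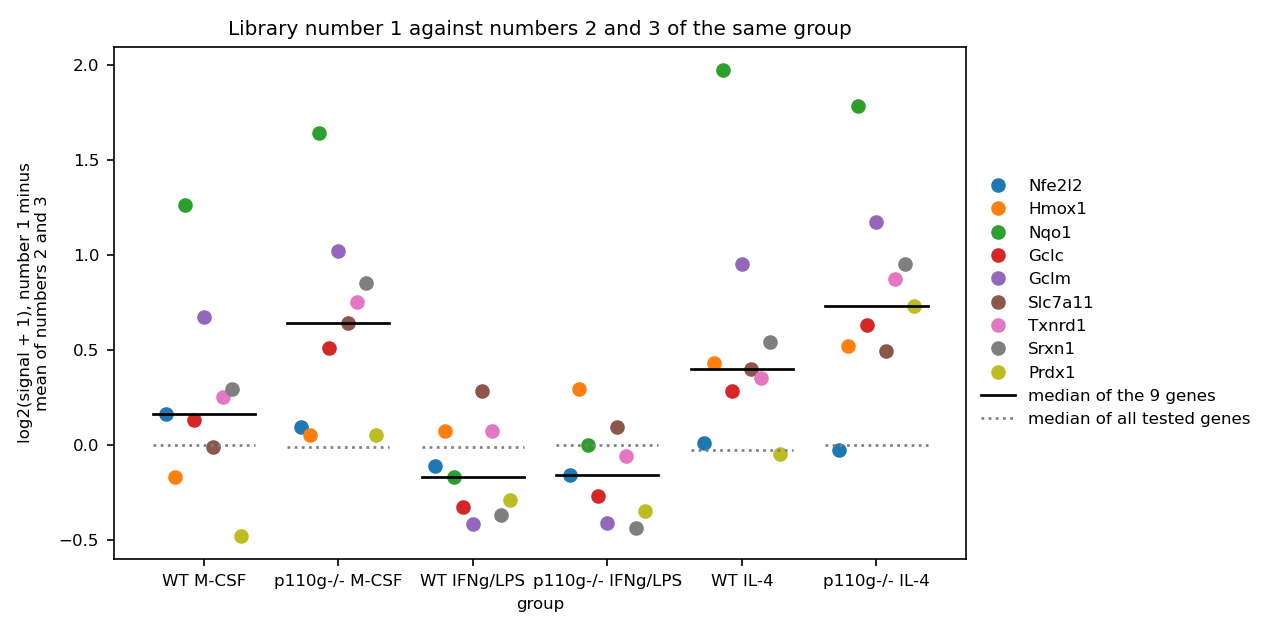
Log2 level of each member in the library numbered 1 minus the mean of numbers 2 and 3, in each of the 6 groups, with bars at the median of the members and dotted lines at the median of all tested genes. Nqo1 and Gclm lie well above 0 in the M-CSF and IL-4 groups and at or below 0 in IFNg/LPS.

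Much of the spread within groups followed the library number. In p110g-/- M-CSF and p110g-/- IL-4 the library numbered 1 was the highest of its group for 8 of 9 members, and in WT M-CSF and WT IL-4 for 6 and 7. Of all genes tested, 35.8% to 37.6% had number 1 highest in these 4 groups. In IFNg/LPS it was highest for 3 members in WT and 2 in p110g-/- cells, against 39.4% and 38.4% of genes. The median log2 excess of number 1 over the members was 0.16 in WT M-CSF, 0.64 in p110g-/- M-CSF, 0.40 in WT IL-4 and 0.73 in p110g-/- IL-4, and -0.17 and -0.16 in WT and p110g-/- IFNg/LPS. These are descriptions with 1 library a number, and no test was made.

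Nqo1 was 2.39, 3.11, 3.93 and 3.44 times higher in number 1 than in numbers 2 and 3 in WT M-CSF, p110g-/- M-CSF, WT IL-4 and p110g-/- IL-4. In p110g-/- IL-4 only 0.378% of tested genes had an excess as large, and in WT IL-4 0.941%. In IFNg/LPS the ratio for Nqo1 was 0.891 in WT and 0.998 in p110g-/- cells. Gclm followed with ratios of 1.60, 2.02, 1.93 and 2.25 in the same 4 groups, and 0.748 and 0.751 in IFNg/LPS. Srxn1 had a log2 excess of 0.29, 0.85, 0.54 and 0.95 in the same 4 groups, and -0.37 and -0.44 in IFNg/LPS. Nfe2l2 itself stayed between 0.897 and 1.12 in all 6 groups, so the number 1 excess of the targets was not seen in the mRNA of the regulator.

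Markers of some other cell types were also highest in number 1. In M-CSF the 8 neutrophil markers summed to 32169.7, 6669.6 and 10310.6 in WT numbers 1, 2 and 3, and to 26146.4, 10001.7 and 12220.8 in the p110g-/- ones. With IL-4 they summed to 21726.6, 4685.5 and 4625.1 in WT, and to 9242.6, 5355.8 and 5433.9 in p110g-/- cells. In IFNg/LPS they summed to 1041.3 to 3278.5. Of these markers, Ly6g, Mpo and Elane were each at 0 in at least 1 of the 18 libraries. The 5 fibroblast markers summed to 2420.5, 458.6 and 370.1 in WT and 3556.5, 1570.4 and 1873.7 in p110g-/- cells in M-CSF. With IL-4 the sums were 1049.4, 269.6 and 209.7 in WT and 1206.0, 743.1 and 1366.3 in p110g-/- cells. Pdgfra was at 0 in at least 1 of the 18 libraries. The 4 listed B cell markers and the 3 listed T and NK cell markers also summed highest in number 1 in these 4 groups. The fibroblast sum in p110g-/- IL-4 was highest in number 3, and the mast cell and basophil sum was highest in number 1 in WT IL-4 alone of these 4 groups. The 5 dendritic cell markers summed to 52.2 to 272.4 over all libraries and the 2 listed erythroid markers to 2.9 to 11.5. Between genotypes, the mast cell and basophil sums were lower in p110g-/- cells without overlap in M-CSF (82.1 to 151.5 in WT, 26.2 to 61.8) and IFNg/LPS (21.5 to 31.0 and 7.5 to 11.7) as well, and the neutrophil sums in IFNg/LPS (2130.7 to 3278.5 and 1041.3 to 1914.8). The dendritic cell sums were higher in p110g-/- M-CSF (182.5 to 272.4, against 122.2 to 137.6). The part of these markers in the members' values was not tested.

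Around the members, 6 lists of pathway genes were read from the same fits. Their counts stand against the shares of all genes called: 73.8% with IFNg/LPS in WT (36.3% higher, 37.5% lower), 73.0% in p110g-/- cells, 43.9% with IL-4 in WT, and by genotype 2.34% in M-CSF, 14.7% in IFNg/LPS and 3.33% in IL-4. By genotype in IFNg/LPS 15 list genes were called, where the 6 lists held 11, 19, 15, 11, 10 and 12 tested genes. With a library left out in turn, 1462 to 2722 of all genes were called in this comparison, against 2303 in the main fit. Without the library labelled p110g-/- IFNg/LPS number 1, 9 of them were still called, and all 15 kept their sign. With numbers 2 and 3 alone more genes were called by genotype in IL-4, 2289 of all genes against 520 in the main fit. The 3.33% above therefore does not apply to that fit. Of the lists it called 5 of 19 glutathione genes (1 higher, 4 lower), 3 of 15 of the thioredoxin list (all lower), 5 of 11 of the NADPH list (1 higher, 4 lower), and 2 each of the regulators (1 higher, 1 lower), the haem list and the detoxification genes (all lower).

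The first list holds the proteins that control NRF2 or pair with it. NRF2's own regulators and partners rose with IFNg/LPS in WT, 11 higher of 11, with a median of 0.91 against -0.01 over all genes. Keap1, which targets NRF2 for destruction, rose by 1.51 (adjusted p = 1.0e-10), the related factor Nfe2l1 by 0.91 (3.2e-10), the autophagy adaptor Sqstm1, which binds KEAP1, by 1.96 (2.0e-09), and the small MAF partner Maff by 2.94 (6.1e-09). With every library scaled to the same total this list had 6 higher and 4 lower, where the median of all genes is -0.52. In p110g-/- cells 9 rose and 1 fell, and 5 and 3 with equal totals. Bach1, the repressor, was the 1 that fell, with -0.26 in p110g-/- cells (adjusted p = 0.019) and 0.24 in WT (adjusted p = 0.026). Without the library labelled p110g-/- IFNg/LPS number 1 its value in p110g-/- cells was -0.17 (adjusted p = 0.11).

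Bach1 differed by genotype in IFNg/LPS. It held 10151 ± 806 (SD, n = 3) in WT and 7917 ± 858 in p110g-/- cells, a difference of -0.36 (SE 0.09, adjusted p = 0.015). Btrc, part of another ubiquitin ligase that acts on NRF2, was also lower (-0.21, adjusted p = 0.032). These were the 2 called of the 11 regulators, both lower, and neither was called with equal totals or without the library labelled p110g-/- IFNg/LPS number 1 (Bach1 -0.27, adjusted p = 0.057, and Btrc -0.18, adjusted p = 0.092). With the replicate block 3 were lower. In IL-4 Bach1 was at 0.33 (adjusted p = 0.065), with 5914 ± 622 in WT and 7432 ± 349 in p110g-/- cells, and 0 of the 11 were called. In M-CSF the small MAF gene Mafk was higher in p110g-/- cells (0.64, adjusted p = 0.044), the 1 called of 11. Against M-CSF in WT, IL-4 lowered Bach1 (-0.54, adjusted p = 2.6e-04), Mafg (-0.42, adjusted p = 0.0071) and Sqstm1 (-0.39, adjusted p = 0.026), and 2 of the 11 rose and 4 fell.

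Of 21 further glutathione enzymes and transporters, 19 were listed and tested. With IFNg/LPS in WT 6 rose and 7 fell, and the median was 0.00, against 2.20 for the members. With equal totals 5 were higher and 10 lower. Glrx, a glutaredoxin, rose by 4.14 (adjusted p = 1.5e-10) and Gsr, the glutathione reductase, by 1.85 (6.9e-09). Mgst3, a microsomal glutathione transferase, fell by 2.80 (1.1e-08). By genotype in IFNg/LPS, 2 were higher and 2 lower. The higher ones were the export pumps Abcc1 (0.83, adjusted p = 0.0017) and Abcc4 (0.67, adjusted p = 0.0089). The lower ones were Glrx (-1.11, adjusted p = 0.0036) and the glutathione peroxidase Gpx1 (-0.44, adjusted p = 0.032). Without the library labelled p110g-/- IFNg/LPS number 1 Gpx1 was at -0.31 (adjusted p = 0.12), and the other 3 were called. The Abcc1 difference was larger in IFNg/LPS than in M-CSF (interaction 0.87, adjusted p = 0.041), but without that library the interaction was 0.77 (adjusted p = 0.064). In M-CSF and in IL-4 the main limma fit, without the replicate block, called 0 of the 19 by genotype. In M-CSF 1 was higher with the replicate block, and 1 with numbers 2 and 3 alone.

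In the thioredoxin and peroxiredoxin list, 7 of 15 rose and 6 fell with IFNg/LPS in WT, and 5 and 6 with equal totals. Prdx5 rose by 3.25 (adjusted p = 2.5e-13) and Txn1, the cytosolic thioredoxin, by 2.22 (3.8e-12), while Sesn1, a sestrin, fell by 5.36 (4.6e-14). Prdx2, a peroxiredoxin of red cells and many other tissues, was lower in p110g-/- cells under all 3 stimuli: -0.60 in M-CSF (adjusted p = 1.8e-04), -0.54 in IFNg/LPS (2.5e-04) and -0.50 in IL-4 (9.1e-04). It was the 1 called of 15 in M-CSF and in IL-4. Prdx1, its close relative among the members, was called by genotype in IL-4, and the interaction given above did not pass limma's test. In IFNg/LPS 4 of 15 were lower, Prdx2 with Msrb1 (-0.62), Sesn2 (-0.60) and Prdx6 (-0.32), and with equal totals 2 were lower and 2 higher. Without the library labelled p110g-/- IFNg/LPS number 1 Msrb1 was at -0.56 (adjusted p = 0.054), and the other 3 were called.

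The NADPH list split with IFNg/LPS in WT, 4 higher and 6 lower of 11 (3 and 6 with equal totals), with a median of -0.51. Idh1 and Idh2, the isocitrate dehydrogenases that yield NADPH, fell (-2.80, adjusted p = 6.7e-11, and -2.72, adjusted p = 1.9e-08), as did Pgls, a lactonase of the pentose phosphate pathway (-1.82, adjusted p = 4.7e-09). With IL-4 in WT 5 of 11 rose and none fell, among them the transketolase Tkt (0.93, adjusted p = 1.3e-05). By genotype, Rpe alone was called, lower in IFNg/LPS (-0.23, adjusted p = 0.037). In IFNg/LPS 2 were higher with equal totals or with the replicate block. The block also had 1 higher in M-CSF and 1 in IL-4. Nnt did not pass limma's main test, at 1.01 in M-CSF (adjusted p = 0.14), 0.74 in IFNg/LPS (0.13) and 1.15 in IL-4 (0.065), with an SE of 0.32 in each. Rpe was not called with equal totals or without the library labelled p110g-/- IFNg/LPS number 1 (-0.22, adjusted p = 0.071).

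Of the 10 genes of haem, bilirubin and iron handling, 6 rose and 3 fell with IFNg/LPS in WT, and 4 and 4 with equal totals. Fth1, the ferritin heavy chain, rose by 1.64 (adjusted p = 4.7e-08) and Blvra, a biliverdin reductase, fell by 1.65 (2.8e-09). By genotype in IFNg/LPS 3 were lower and none higher: Blvra (-0.74, adjusted p = 5.7e-04), the constitutive haem oxygenase Hmox2 (-0.61, adjusted p = 5.8e-04) and the iron exporter Slc40a1 (-0.81, adjusted p = 0.048). With equal totals 2 were lower. The Blvra difference was larger in IFNg/LPS than in M-CSF (interaction -0.72, adjusted p = 0.029). Without the library labelled p110g-/- IFNg/LPS number 1 the interaction was -0.71 (adjusted p = 0.042), but with equal totals 0 of the 10 passed it. In IL-4 Fth1 was lower in p110g-/- cells (-0.58, adjusted p = 0.037), the 1 called of 10. Of 12 other detoxification genes linked to NRF2, 2 rose and 6 fell with IFNg/LPS in WT (0 and 7 with equal totals), with Ephx1, an epoxide hydrolase, among the latter (-3.98, adjusted p = 4.9e-10). Osgin1 was lower by genotype in IFNg/LPS (-0.68, adjusted p = 0.036), but it was not called with equal totals or without the library labelled p110g-/- IFNg/LPS number 1 (-0.68, adjusted p = 0.066). In M-CSF and IL-4 the main limma fit, without the replicate block, called 0 of 12 by genotype. With the block 1 was lower in IL-4.

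**Figure D5:**
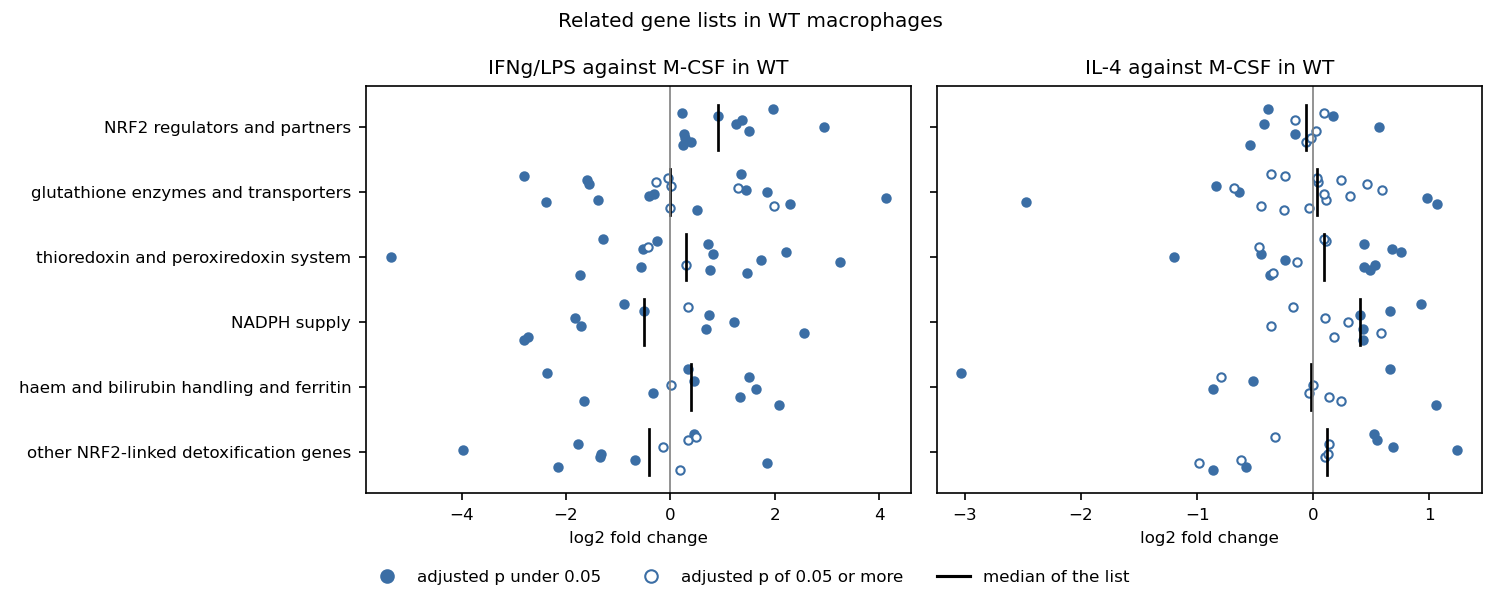
Log2 fold change of each gene of the 6 related lists with IFNg/LPS and with IL-4 against M-CSF in WT cells, with each point a gene, filled where the adjusted p is under 0.05, and a bar at the list's median. With IFNg/LPS the regulators and partners all lie above 0 (median 0.91), while the other 5 lists spread to both sides.

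Genes whose pattern over the 18 libraries lay nearest to a member were found by the root mean square difference in log2(signal + 1) after centring. For Nfe2l2 they were Rmnd5b (0.0789), Ppp1cc (0.0839) and Mbtps2 (0.0868). For Hmox1 they were Nt5c3 (0.274), Pnp (0.279) and Slfn3 (0.292). For Slc7a11 they were Wdr92 (0.273), Sema4a (0.316) and Msantd3 (0.316). Sema4a, like Slc7a11, was highest in p110g-/- IFNg/LPS, at a mean of 22240 against 12327 in WT, while Nt5c3 and Pnp, like Hmox1, were highest in WT IFNg/LPS.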

How the data were processed

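RNA from 18 macrophage libraries was sequenced by the submitters. The values are a normalised signal per gene, deposited by the authors in 1 table: gene reads divided by 1 factor per library, as the values show, since 99.53% to 100.0% of values per library were whole multiples of 1 step to within 0.1. Per the submitters' processing notes, CASAVA 1.8.2, Bowtie2 and DESeq were used with genome build mm9. The counting method, annotation and strand are not given in the sources used here. Libraries held 40.1 to 69.6 M recovered reads (1 M is 1e6).

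The signals were tested as log2(signal + 1) with limma 3.58.1 in R 4.3.3, as 6 group means over 18 libraries, leaving 12 residual degrees of freedom, with moderation by trend and robust settings. The 15627 genes that reached 10 in 3 or more libraries were tested, two-sided, with Benjamini-Hochberg adjustment over all of them at 0.05. Alternatives were pseudocounts of 0.5 and 10, other filters and scalings, fewer groups or libraries, a replicate block, edgeR 4.0.16 (quasi-likelihood) and DESeq2 1.42.0 on recovered reads. No alternative was added later.

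Members and gene lists were chosen with earlier results of these data known. All 9 members reported here are named in each comparison, and 1 further gene of the list is not reported here. Library values are given for Nfe2l2, Hmox1 and members called by genotype, and up to 4 genes with the smallest p are named per list and comparison. The library number was treated as pairing groups where every same-numbered pair of deviations correlated above 0.1: 0.55, 0.34 and 0.26 for genotype in IFNg/LPS, 0.26, 0.19 and 0.16 for IFNg/LPS in WT, 0.46, 0.35 and 0.18 for IL-4 in WT, and 0.40, 0.25 and 0.19 for IL-4 in p110g-/- cells. The labels do not say what a number marks.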

Additional observations from a re-analysis of the deposited data

How the results depend on the processing

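The 9 members gave 1566 single-gene values under alternative settings. Of these, 1496 kept their side of the threshold, 31 lost a call, 39 gained one and 0 reversed while called. The 1496 include uncalled values that changed sign. Nqo1 by genotype in M-CSF, at -0.15, ran from -0.69 to 0.27 over the alternatives. Members called by genotype in IFNg/LPS numbered 2, but 1 without the trend and robust settings, 4 with the replicate block and 6 with libraries numbered 2 and 3 only, and 1 to 3 when each library was left out in turn. By genotype in IL-4 there was 1, but 5 with numbers 2 and 3 only, 0 with only the groups compared, and 0 to 1 with a library left out. For IL-4 in WT the 3 calls ranged from 1 to 3 with a library left out, and for IL-4 in p110g-/- cells 4 became 9 with numbers 2 and 3 only. For the interactions, 0 became 4 (IFNg/LPS) and 3 (IL-4) with numbers 2 and 3 only, and for IL-4 1 with DESeq2 and 0 to 1 with a library left out. Numbers 2 and 3 alone have fewer samples; why they give more calls was not tested, and the cause of the other changes was not tested either.

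Counts over all genes also moved. By genotype in M-CSF the 365 genes called became 555 with the block, 683 with numbers 2 and 3 only, 669 with DESeq2 and 239 to 336 with a library left out. By genotype in IFNg/LPS 2303 became 4143 with numbers 2 and 3 only, 723 with only the groups compared and 1462 to 2722 with a library left out. By genotype in IL-4 520 became 2289 with numbers 2 and 3 only, 909 with DESeq2 and 238 to 725 with a library left out. The IFNg/LPS interaction went from 381 to 716 (block), 1703 (numbers 2 and 3), 213 (groups compared), 884 (DESeq2) and 183 to 640 with a library left out. The IL-4 interaction went from 0 to 10 with log2(signal + 10), 3 with the same total, 2 without trend and robust settings, 8 with the block, 386 with numbers 2 and 3, 76 with DESeq2 and 0 to 89 with a library left out.

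With equal totals the median of all genes was -0.52 (IFNg/LPS in WT) and -0.41 (in p110g-/-), from -0.01 in each, and 0.11 (its interaction), from 0.00. The share of calls that were higher went from 47.1% to 72.3% by genotype in IFNg/LPS, from 49.2% to 25.9% and 49.6% to 29.5% for IFNg/LPS in WT and p110g-/- cells, from 52.1% to 40.7% for IL-4 in WT and from 41.7% to 71.8% for the IFNg/LPS interaction. The replicate block changed calls of Hmox1 and Txnrd1 by genotype in IFNg/LPS and of Nqo1 with IL-4, as given above, and no other member's call. Where the numbers did not pair the groups it changed no member's call; same-numbered pairs there correlated at 0.47, 0.36 and 0.05 (genotype in M-CSF), 0.43, 0.30 and 0.05 (genotype in IL-4) and 0.17, 0.16 and 0.03 (IFNg/LPS in p110g-/-). Depth limits Nqo1 most.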
